A study of Homo sapiens with 192 samples.

Results

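The ABC transporter family was followed in flat (2D) and 3D cultures of 4 human colorectal cancer cell lines (HCT116, HT29, LS174T, LS513). Members were all protein-coding genes whose symbol is ABCA, ABCB, ABCC, ABCD, ABCE, ABCF or ABCG followed by a number. This rule found 45 genes among 19788 protein-coding genes and 58243 genes in all. By known role they comprised 11 pumps of drugs and organic anions, 18 transporters of lipids, sterols and bile salts, 4 ABCD transporters of peroxisomes and lysosomes, 5 ABCB transporters of mitochondria and other organelles, 2 sulfonylurea receptors, 4 soluble translation factors and ABCB5. The lines are established, the labels name no treatment or genetic change, and each of the 8 groups of line and culture held 3 libraries of poly(A)+ RNA. HCT116 was maintained in McCoy medium and the other lines in DMEM, so line and medium cannot be told apart for HCT116. The spheroid assay of the study used low attachment plates, and how the 3D cultures for RNA were made is not given beyond the words 3D growth.

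ABC proteins bind ATP in a pair of conserved nucleotide-binding domains and, in most members, use its hydrolysis to move a substrate across a membrane. The pumps of the ABCB, ABCC and ABCG groups send drugs, conjugates of glutathione and glucuronic acid, and cyclic nucleotides out of the cell, and in the gut they limit the uptake of swallowed compounds. ABCA members and several ABCG members move cholesterol and phospholipids. Nuclear receptors control many of these genes: LXR (encoded by NR1H3 and NR1H2) drives ABCA1 and ABCG1, and PXR (encoded by NR1I2) is known for inducing ABCB1. ABCE1 and the ABCF proteins lack membrane domains and work at the ribosome.

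Library totals ran from 18723942 to 34277421 counts with a median of 30777613.5. Levels are given as counts per 1000000 (CPM), scaled to effective library totals. The limit of detection was taken as 3 counts, which corresponded to 0.0875 to 0.160 counts per 1000000 of the unscaled totals and so differs slightly on the CPM scale. The 10 colon epithelial markers were all detected in HT29, LS513 and LS174T, and 7 of 10 in HCT116 in 2D, where CDX1 was at most at 1 count. Defining markers of leukocytes (PTPRC, CD3E) were at or near 0 in all groups, but the summed level of 6 leukocyte markers, most of it CD68 and, in HT29, CD14, was higher in 3D in every line: 24.03 to 33.1 against 11.6 to 15.6 CPM in HT29, 61.8 to 91.9 against 18.1 to 20.5 CPM in LS513, 36.6 to 48.2 against 10.4 to 14.2 CPM in HCT116, and at least 5.25 against at most 3.89 CPM in LS174T. Its part in the results was not tested. The labels do not say that the 3 libraries of a group came from separate cultures, so p-values measure the spread between these libraries, which may be technical. Since whole cultures were sequenced, fewer cells of a type and less RNA per cell cannot be told apart.

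Of the 45 members, 22 had over 3 counts in all 3 libraries of every one of the 8 groups, and 33 held enough counts to be tested. The 12 members left out of the tests were ABCA6, ABCA8, ABCA9, ABCA13, ABCB5, ABCB11, ABCC8, ABCC9, ABCC12, ABCD2, ABCG5 and ABCG8. ABCC9, a subunit of potassium channels, had no count in any library, and the sterol pair ABCG5 and ABCG8 reached at most 7 and 2 counts. ABCB11, the bile salt export pump, passed 3 counts in all libraries of LS513 in 3D alone, where it held 5 to 7 counts, and ABCC8 in HT29 in 3D alone, where it held 4 to 6 counts. Per kilobase of exon, the highest means over all 24 libraries were those of translation factors: ABCF2 at 49.5 CPM per kilobase, ABCF1 at 29.02 and ABCE1 at 25.1. ABCC3 followed at 21.7 and ABCC1 at 16.9 CPM per kilobase. Some counts are uncertain because exons are shared: 54.7% of the exonic length of ABCB6 and 45.8% of that of ABCF2 lie in annotated readthrough or overlapping genes of the same strand. ABCC6, ABCF2 and ABCB10 have near-identical pseudogenes, and reads aligned to more than 1 place had been removed before counting.

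Gene positions here are those of GENCODE 29 (GRCh38). ABCA5, ABCA6, ABCA8, ABCA9 and ABCA10 lie on the minus strand of chromosome 17, and of these only ABCA5 and ABCA10 had enough counts to be tested. ABCB1 and ABCB4 lie on the minus strand of chromosome 7, and ABCC1 and ABCC6 on opposite strands of chromosome 16. ABCG5 and ABCG8 overlap on opposite strands of chromosome 2.

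The question put to the data was how growth in 3D changed each member, line by line. A gene was called at an adjusted p under 0.05 in edgeR's quasi-likelihood test, adjusted over all 19387 genes tested. In HT29, 8 of the 33 tested members were called higher in 3D, where 21.1% of all tested genes were, and 8 lower, where 19.6% were. LS513 had 3 members called higher against 13.7% of all genes, and 4 lower against 9.90%. HCT116 had 9 higher against 16.8%, and 5 lower against 12.3%. LS174T had 5 higher against 13.1%, and 4 lower against 9.15%. As shares of 33 these are 24.2% in both directions in HT29, 9.09% and 12.1% in LS513, 27.3% and 15.2% in HCT116, and 15.2% and 12.1% in LS174T, so the members as a whole stood near the background. The median log2 fold change of the 33 members was 0.0679, 0.14, 0.11 and 0.0399 in HT29, LS513, HCT116 and LS174T, beside 0.00017, 0, 0.0111 and 0.0163 over all tested genes.

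The calls were also counted by role, without a test of the difference between roles. None of the 11 tested lipid transporters was called lower in any line, and 5, 0, 4 and 2 were called higher in HT29, LS513, HCT116 and LS174T. Their median log2 fold change was 0.92 in HT29 and 0.37 in HCT116, with 0.19 in LS513 and 0.11 in LS174T. None of the 4 translation factors was called higher in any line, and 3, 2, 3 and 1 were called lower, with medians of -0.52, -0.22, -0.35 and -0.21. The 10 tested drug pumps went both ways: 1 higher and 4 lower in HT29, 2 and 1 in LS513, 3 and 1 in HCT116, and 2 and 2 in LS174T. No member was called higher in all 4 lines. ABCD3 and ABCF2 were called lower in all 4, ABCE1 was called lower in 3, and ABCB6 and ABCC6 were called higher in 3. The share of all tested genes called the same way in 3 or 4 lines was not counted, so shared calls have no background beside them. This holds for the gene lists below as well.

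**Figure D1:**
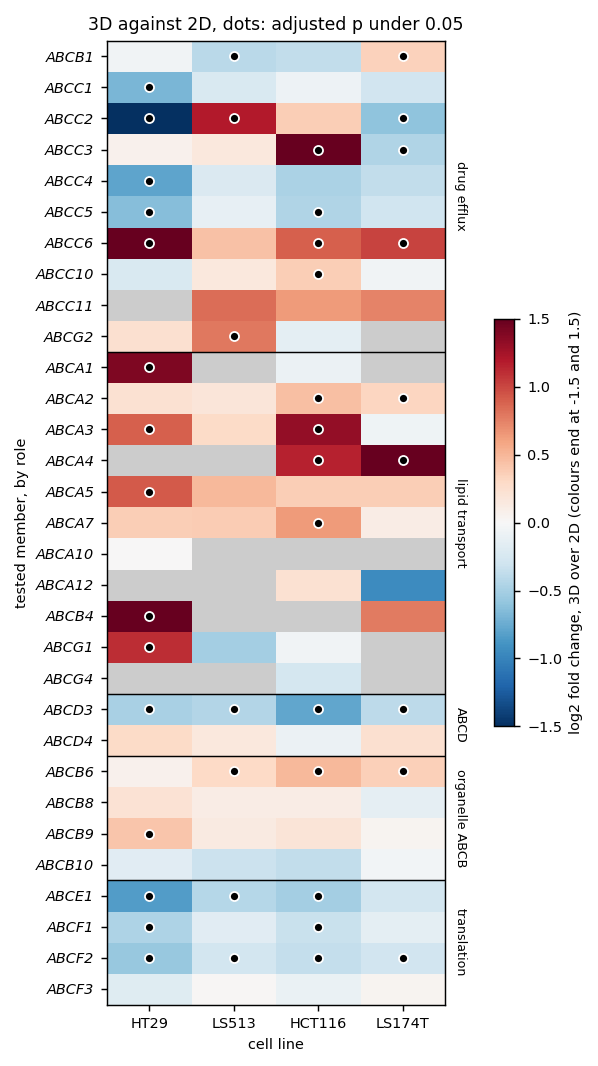
Log2 fold change of 3D over 2D (colour; red higher, blue lower, colours ending at -1.5 and 1.5) for 31 of the 33 tested members (rows, by role) in the 4 lines (columns). Black dots mark the 44 calls at an adjusted p under 0.05, and grey marks the 17 of 124 pairs of member and line in which neither culture had over 3 counts in all 3 libraries; lipid transporters carry dots on red only and translation factors on blue only.

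Averaged over the 4 lines, 12 members were called higher in 3D, where 26.6% of all genes were, and 8 lower, where 23.9% were. Among the rises were those of ABCC6 (mean log2 fold change 1.18, standard error 0.17, adjusted p = 4.1e-06) and ABCB6 (mean log2 fold change 0.30, standard error 0.06, adjusted p = 7.3e-05). The largest falls were those of ABCD3 (mean log2 fold change -0.52, standard error 0.07, adjusted p = 1.4e-06), ABCE1 (mean log2 fold change -0.51, standard error 0.07, adjusted p = 1.3e-06) and ABCC4 (mean log2 fold change -0.46, standard error 0.10, adjusted p = 6.6e-04). The change itself differed between lines for 7 members, where 17.1% of all genes differed (F test on the interaction of line and culture). These 7 made up 21.2% of the tested members, near that background. They were ABCA1, ABCA3, ABCB1, ABCC2, ABCC3, ABCG1 and ABCG2, all of them pumps of drugs or lipids by role. Most tested members have these roles, 10 of the 33 being drug pumps and 11 lipid transporters, and a difference between roles was not tested.

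The bases just upstream of 4 of the 5 members that went the same way in at least 3 lines are printed here, from RefSeq's promoter table for GRCh38.p14, each read 5′ to 3′ on its gene's own strand, reaching up to 250 bases before the most upstream start in the table and holding only bases outside the annotated gene. ABCD3 is shown at chr1:94418139-94418388, plus strand, ABCF2 at chr7:151227231-151227455, minus strand, ABCB6 at chr2:219219018-219219208, minus strand and ABCC6 at chr16:16223523-16223744, minus strand. Capitals mark letters searched on both strands: the GC box GGGCGG, the CCAAT box CCAAT, the E-box CACGTG, the hypoxia response core ACGTG, which lies within the E-box and overlaps it, the TATA box TATAAA and the antioxidant response core TGACNNNGC.
ABCD3: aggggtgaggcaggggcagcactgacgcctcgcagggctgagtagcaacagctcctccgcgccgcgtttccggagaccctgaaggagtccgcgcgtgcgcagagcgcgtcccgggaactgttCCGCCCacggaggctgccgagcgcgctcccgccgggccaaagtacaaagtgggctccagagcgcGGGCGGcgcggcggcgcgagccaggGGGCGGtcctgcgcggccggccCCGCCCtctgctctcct
ABCF2: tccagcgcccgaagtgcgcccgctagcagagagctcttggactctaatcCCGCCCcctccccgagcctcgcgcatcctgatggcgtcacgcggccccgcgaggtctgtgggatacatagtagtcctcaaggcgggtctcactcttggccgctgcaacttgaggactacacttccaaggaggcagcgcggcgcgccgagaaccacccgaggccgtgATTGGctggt
ABCB6: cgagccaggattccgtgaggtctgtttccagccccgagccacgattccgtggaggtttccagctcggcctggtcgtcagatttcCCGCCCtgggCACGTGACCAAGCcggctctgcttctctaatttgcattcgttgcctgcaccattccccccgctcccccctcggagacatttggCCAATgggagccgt
ABCC6: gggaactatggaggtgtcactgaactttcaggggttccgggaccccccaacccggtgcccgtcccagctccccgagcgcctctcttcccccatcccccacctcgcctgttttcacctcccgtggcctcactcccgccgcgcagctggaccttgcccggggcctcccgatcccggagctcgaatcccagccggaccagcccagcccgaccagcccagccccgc
The ABCD3 window held 4 GC boxes and the ABCF2 window 1 GC box and 1 CCAAT box, while the ABCC6 window held none of the motifs. In the ABCB6 window there were 1 GC box, 1 CCAAT box, 1 E-box, 2 hypoxia cores, both within the E-box and 1 on each strand, and 1 antioxidant core. These counts cover the printed bases only, and the full ABCB6 window of 250 bases held 2 GC boxes. The shares that follow are for full windows of 250 bases. Over all 27305 windows of the table, 42.2% held a GC box, 33.0% a CCAAT box, 6.46% an E-box, 18.6% a hypoxia core, 11.2% a TATA box and 11.1% an antioxidant core. Windows were found for 35 of the 45 members, of which 48.6% held a GC box and 17.1% a CCAAT box. Of the same 35 windows, 17.1% held an E-box, 25.7% a hypoxia core, 17.1% a TATA box and 20% an antioxidant core. Differences from all windows were not tested. The median GC content was 65.0% in windows of tested members, 46.4% in those of untested members and 57.6% over all windows. A match is a run of letters and no evidence that a factor binds there.

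Differences between lines were called for more members than differences between cultures. All 33 tested members differed between lines in 2D, where 91.7% of all tested genes did (F test among the 4 lines). ABCA10 and ABCG4 had over 3 counts in all libraries of only 2 of the 8 groups, those of HT29 and those of HCT116, respectively. They held enough counts to be tested only through the line where they were high, so their line difference was fixed in advance. All tested genes passed the same filter. Between pairs of lines in 2D the called members were 25 for HT29 and LS513 (60.6% of all genes), 27 for HT29 and HCT116 (68.8%), 26 for HT29 and LS174T (64.6%), 28 for LS513 and HCT116 (68.3%), 23 for LS513 and LS174T (57.6%) and 26 for HCT116 and LS174T (68.3%).

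The leading drug pump was not the same in all lines. Summed over the 11 genes and set per kilobase, the pumps reached 100.4 ± 7.48 CPM per kilobase in HT29 in 2D, 85.7 ± 2.61 in LS513, 65.3 ± 9.49 in HCT116 and 64.4 ± 3.19 in LS174T (SD, n = 3 throughout). ABCC3 made up 48.6 ± 2.53% of that sum in HT29 and 33.2 ± 1.14% in LS513. ABCC1 and ABCC2 led in HCT116 with 38.98 ± 1.78% and 36.3 ± 1.71%. In LS174T, ABCB1 led with 51.5 ± 3.41%. The sum moved little with culture, standing in 3D at 92.1 ± 1.86, 91.1 ± 2.19, 70.8 ± 5.99 and 67.6 ± 2.41 CPM per kilobase in the same order of lines, and the ranges of the 2 cultures overlapped in all lines but LS513, where the lowest 3D sum was 89.2 and the highest 2D sum 88.7. Shares within the sum shifted: ABCG2 went from 13.1 ± 0.765% to 21.3 ± 2.36% in LS513, ABCC2 from 36.3 ± 1.71% to 42.99 ± 3.27% in HCT116, and ABCB1 from 51.5 ± 3.41% to 62.3 ± 2.65% in LS174T.

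**Figure D2:**
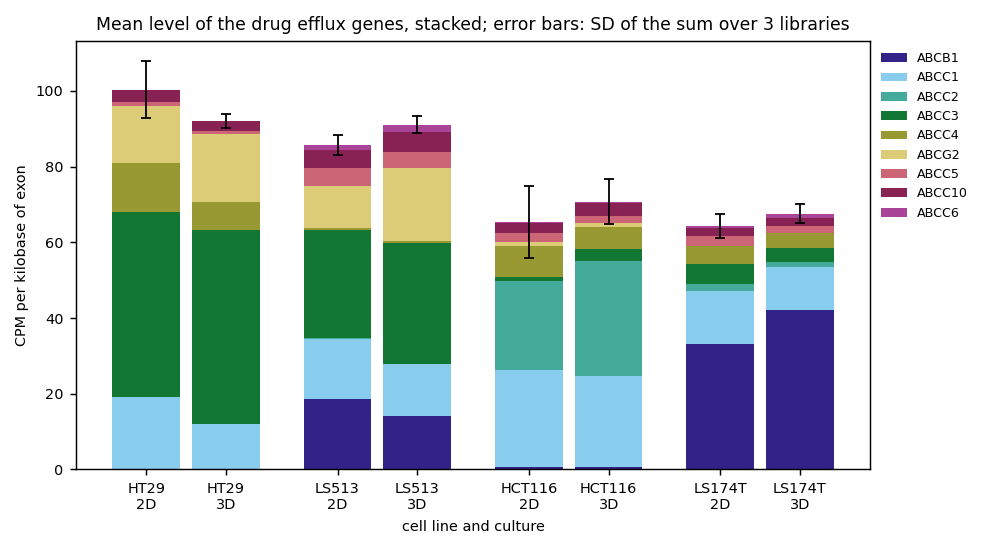
Mean CPM per kilobase of exon of the drug pumps, stacked by gene, for each line in 2D and 3D (n = 3 libraries; error bars, SD of the sum over all 11 genes; ABCC11 and ABCC12, too low to see, are not drawn). ABCC3 fills the largest part in HT29 and LS513, ABCC1 with ABCC2 in HCT116 and ABCB1 in LS174T, in both cultures.

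ABCB1 (ENSG00000085563, chr7:87503633-87713323, minus strand) encodes P-glycoprotein, the pump of many hydrophobic anticancer drugs. In 2D it was highest in LS174T, then LS513 (log2 LS513 over LS174T -0.83, adjusted p = 2.2e-06), then HCT116 (log2 LS513 over HCT116 4.73, adjusted p = 1.8e-18) and lowest in HT29 (log2 HT29 over HCT116 -4.35, adjusted p = 4.3e-13), so all neighbours in the order differed. LS174T libraries showed ABCB1 at 169, 199 and 211 CPM in 2D and 232, 252 and 249 CPM in 3D (log2 fold change 0.34, standard error 0.12, adjusted p = 0.041). LS513 libraries showed it at 120.0, 112 and 94.4 CPM in 2D and 81.9, 76.97 and 87.7 CPM in 3D (log2 fold change -0.40, standard error 0.12, adjusted p = 0.016). ABCB1 was thus called higher in 3D in the line with most of it and lower in LS513, with no overlap between cultures in either line. The HCT116 values were 3.75, 4.77 and 3.72 CPM in 2D and 2.66, 2.97 and 3.84 CPM in 3D (log2 fold change -0.37, standard error 0.15, adjusted p = 0.073), and HT29 held 0.274, 0.103 and 0.219 CPM in 2D and 0.151, 0.173 and 0.254 CPM in 3D, near the limit of detection. The LS174T call was lost when LS174T 2D replicate 1, 2D replicate 2, 3D replicate 1, 3D replicate 2, 3D replicate 3 or LS513 2D replicate 2 was left out (adjusted p up to 0.19) and when the 6 libraries of the line were fitted alone (adjusted p = 0.087). The LS513 call was lost when LS513 2D replicate 1, 2D replicate 2, 3D replicate 1 or 3D replicate 2 was left out (adjusted p up to 0.1).

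ABCC1 (ENSG00000103222, chr16:15949577-16143074, plus strand) exports glutathione conjugates and was abundant in all lines. Its 2D order was HCT116, HT29 (log2 HT29 over HCT116 -0.42, adjusted p = 0.0036), LS513 (log2 HT29 over LS513 0.26, adjusted p = 0.069) and LS174T (log2 LS513 over LS174T 0.19, adjusted p = 0.18), and the last 2 steps did not pass the test. HT29 showed ABCC1 at 146, 149 and 137 CPM in 2D and 91.6, 76.6 and 101 CPM in 3D (log2 fold change -0.68, standard error 0.12, adjusted p = 1.4e-04). The HT29 cultures did not overlap, and every 3D library lay below every 2D library. LS513 held 119, 122 and 119.7 CPM in 2D and 105, 94.7 and 109 CPM in 3D (log2 fold change -0.23, standard error 0.12, adjusted p = 0.2). HCT116 held 221, 199 and 159 CPM in 2D and 173, 205 and 171 CPM in 3D (log2 fold change -0.08, standard error 0.12, adjusted p = 0.68). LS174T held 109, 104 and 102 CPM in 2D and 92.03, 69.6 and 95.8 CPM in 3D (log2 fold change -0.29, standard error 0.12, adjusted p = 0.086). Among single lines only the HT29 change passed the test. The 3D libraries of LS513 and LS174T also lay below their 2D libraries, without a call, while those of HCT116 overlapped. The LS513 change was called when the 6 libraries of the line were fitted alone (adjusted p = 0.03). ABCC1 was called lower in the mean of the lines (mean log2 fold change -0.32, standard error 0.06, adjusted p = 1.2e-04). Its change was not called different between lines (F test on the interaction, adjusted p = 0.067).

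ABCC2 (ENSG00000023839, chr10:99782640-99852594, plus strand), the apical exporter of conjugated bilirubin and of several drugs, was found mainly in HCT116. Its 2D order was HCT116, LS174T (log2 HCT116 over LS174T 3.59, adjusted p = 6.9e-14), HT29 (log2 HT29 over LS174T -3.43, adjusted p = 7.7e-12) and LS513 (log2 HT29 over LS513 0.91, adjusted p = 0.017). HCT116 showed ABCC2 at 192, 208 and 156 CPM in 2D and 276, 233 and 208 CPM in 3D (log2 fold change 0.37, standard error 0.17, adjusted p = 0.12). The cultures overlapped there, with 3D replicate 3 at the level of the highest 2D library. LS174T showed ABCC2 at 18.2, 12.6 and 15.4 CPM in 2D and 8.55, 9.88 and 11.98 CPM in 3D (log2 fold change -0.60, standard error 0.19, adjusted p = 0.025), a fall without overlap. In HT29 it lay at 1.27, 1.93 and 0.931 CPM in 2D and 0.302, 0.484 and 0.653 CPM in 3D (log2 fold change -1.59, standard error 0.36, adjusted p = 0.0012) and in LS513 at 0.772, 0.725 and 0.760 CPM in 2D and 1.02, 2.02 and 2.11 CPM in 3D (log2 fold change 1.19, standard error 0.31, adjusted p = 0.0063). In these last 2 lines the cultures again did not overlap, and ABCC2 fell in HT29 and rose in LS513, both from levels far below that of HCT116. The LS174T call was lost when LS174T 2D replicate 1, 2D replicate 3, 3D replicate 1 or 3D replicate 2 was left out (adjusted p up to 0.13) and when the 6 libraries of the line were fitted alone (adjusted p = 0.073).

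ABCC3 (ENSG00000108846, chr17:50634777-50692252, plus strand), the basolateral exporter of glucuronides and bile salts, was the leading pump of HT29 and LS513. Its 2D order was HT29, LS513 (log2 HT29 over LS513 0.78, adjusted p = 1.4e-04), LS174T (log2 LS513 over LS174T 2.47, adjusted p = 5.0e-12) and HCT116 (log2 HCT116 over LS174T -2.30, adjusted p = 3.0e-11). HCT116, the line with least of it, showed ABCC3 at 9.54, 10.4 and 10.3 CPM in 2D and 42.2, 30.3 and 19.3 CPM in 3D (log2 fold change 1.61, standard error 0.17, adjusted p = 3.2e-07). Every 3D library of HCT116 lay above the 2D libraries, with 3D replicate 3 the lowest of them. LS174T showed ABCC3 at 48.1, 47.4 and 52.6 CPM in 2D and 34.8, 39.6 and 34.3 CPM in 3D (log2 fold change -0.45, standard error 0.16, adjusted p = 0.0483), lower without overlap. HT29 stood at 537, 426 and 446 CPM in 2D and 488, 529.9 and 459 CPM in 3D (log2 fold change 0.07, standard error 0.16, adjusted p = 0.78) and LS513 at 283, 259 and 280.1 CPM in 2D and 322, 313 and 283 CPM in 3D (log2 fold change 0.16, standard error 0.16, adjusted p = 0.51). The high levels of HT29 and LS513 were not called changed. The LS174T call was lost when any of 21 of the 24 libraries was left out (adjusted p up to 0.14), so it stood at the threshold. It was also lost with DESeq2 size factors (adjusted p = 0.056) and when technical replicate d was left out (adjusted p = 0.058).

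ABCC4 (ENSG00000125257, chr13:95019829-95301475, minus strand), which exports cyclic nucleotides and nucleotide analogues, was highest in HT29 in 2D, then HCT116 (log2 HT29 over HCT116 0.68, adjusted p = 0.0036), LS174T (log2 HCT116 over LS174T 0.69, adjusted p = 0.0032) and LS513 (log2 LS513 over LS174T -3.16, adjusted p = 1.3e-11). In HT29, ABCC4 lay at 106, 118 and 109 CPM in 2D and 70.7, 52.6 and 69.8 CPM in 3D (log2 fold change -0.79, standard error 0.19, adjusted p = 0.0026), lower in 3D without overlap. HCT116 showed ABCC4 at 78.6, 75.3 and 54.3 CPM in 2D and 45.8, 46.4 and 58.3 CPM in 3D (log2 fold change -0.47, standard error 0.19, adjusted p = 0.074). LS174T showed it at 42.2, 43.96 and 42.6 CPM in 2D and 32.7, 26.1 and 41.03 CPM in 3D (log2 fold change -0.37, standard error 0.20, adjusted p = 0.18). Neither change passed the test, and the LS513 libraries, at 3.54, 4.95 and 5.86 CPM in 2D and 2.92, 3.45 and 5.99 CPM in 3D, overlapped (log2 fold change -0.21, standard error 0.24, adjusted p = 0.57). The HCT116 and LS174T falls were called when every gene with a count was tested (adjusted p = 0.0012 and 0.042). The HCT116 fall was also called when the 6 libraries of the line were fitted alone (adjusted p = 0.0295).

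ABCC5 (ENSG00000114770, chr3:183919934-184018015, minus strand), a related exporter of cyclic nucleotides, had the opposite order of lines, with most in LS513, then LS174T (log2 LS513 over LS174T 0.87, adjusted p = 1.1e-05) and HCT116, which did not differ (log2 HCT116 over LS174T -0.05, adjusted p = 0.77), and least in HT29 (log2 HT29 over HCT116 -1.20, adjusted p = 1.3e-07). In HT29, ABCC5 lay at 12.9, 10.8 and 12.7 CPM in 2D and 9.23, 6.92 and 7.18 CPM in 3D (log2 fold change -0.63, standard error 0.15, adjusted p = 0.0021), lower in 3D without overlap. In HCT116, ABCC5 lay at 30.1, 30.8 and 22.7 CPM in 2D and 24.8, 21.1 and 15.3 CPM in 3D (log2 fold change -0.45, standard error 0.14, adjusted p = 0.02), where it was called lower although the cultures overlapped. LS174T libraries were tight, at 29.2, 28.5 and 28.9 CPM in 2D and 23.5, 23.1 and 23.6 CPM in 3D (log2 fold change -0.30, standard error 0.14, adjusted p = 0.13), and did not overlap, yet the change was not called. LS513 held 53.99, 49.998 and 54.1 CPM in 2D and 45.2, 45.998 and 53.4 CPM in 3D (log2 fold change -0.13, standard error 0.14, adjusted p = 0.57). The HCT116 call was lost when HCT116 2D replicate 1, 2D replicate 2 or 3D replicate 3 was left out (adjusted p up to 0.11) and when the 6 libraries of the line were fitted alone (adjusted p = 0.069).

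ABCG2 (ENSG00000118777, chr4:88090264-88231322, minus strand), the breast cancer resistance protein that exports topoisomerase inhibitors and mitoxantrone, was found mainly in HT29 and LS513. In 2D HT29 was above LS513 (log2 HT29 over LS513 0.44, adjusted p = 0.013) and LS513 above HCT116 (log2 LS513 over HCT116 3.44, adjusted p = 8.2e-15), while LS174T held at most 2 counts in any library. LS513 showed ABCG2 at 57.6, 52.6 and 59.5 CPM in 2D and 86.9, 95.3 and 112 CPM in 3D (log2 fold change 0.79, standard error 0.15, adjusted p = 3.6e-04). All 3D libraries of LS513 exceeded all 2D libraries, and no library left out ended this call. HT29 held 83.7, 58.1 and 88.04 CPM in 2D and 80.99, 83.02 and 108 CPM in 3D (log2 fold change 0.25, standard error 0.15, adjusted p = 0.19) and HCT116 5.56, 5.03 and 5.04 CPM in 2D and 4.12, 4.57 and 5.45 CPM in 3D (log2 fold change -0.14, standard error 0.17, adjusted p = 0.58). Both overlapped between cultures and neither was called.

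ABCC6 (ENSG00000091262, chr16:16148928-16223522, minus strand), a liver and kidney transporter whose activity releases ATP and whose loss causes pseudoxanthoma elasticum, was the pump that went up in most lines. LS174T showed ABCC6 at 4.19, 4.52 and 3.76 CPM in 2D and 8.09, 9.73 and 7.46 CPM in 3D (log2 fold change 1.02, standard error 0.20, adjusted p = 0.0012). HCT116 showed it at 0.906, 0.805 and 0.706 CPM in 2D and 1.63, 1.67 and 1.24 CPM in 3D (log2 fold change 0.90, standard error 0.27, adjusted p = 0.013). In HT29, ABCC6 was barely detected, at 0, 0.0344 and 0.219 CPM in 2D and 0.483, 0.277 and 0.290 CPM in 3D (log2 fold change 2.36, standard error 0.57, adjusted p = 0.0023). It was called higher in these 3 lines, with every 3D library above every 2D library. LS513, the line with most ABCC6, held 11.4, 10.2 and 10.4 CPM in 2D and 15.4, 16.4 and 11.4 CPM in 3D (log2 fold change 0.44, standard error 0.19, adjusted p = 0.1), again without overlap and not called by edgeR, though by DESeq2 (adjusted p = 0.026). The HT29 2D libraries held 0 to 4 counts of it. The HCT116 call was lost when HCT116 3D replicate 1 or 3D replicate 2 was left out (adjusted p up to 0.062).

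ABCC10 (ENSG00000124574, chr6:43427366-43450430, plus strand), a pump of taxanes and other drugs, was highest in LS513 in 2D, then HT29 (log2 HT29 over LS513 -0.57, adjusted p = 2.7e-04) and HCT116, which did not differ (log2 HT29 over HCT116 0.20, adjusted p = 0.16), and lowest in LS174T (log2 HCT116 over LS174T 0.38, adjusted p = 0.0086). In HCT116, ABCC10 lay at 23.9, 24.7 and 18.5 CPM in 2D and 31.2, 32.8 and 22.7 CPM in 3D (log2 fold change 0.37, standard error 0.12, adjusted p = 0.025), called higher with overlap through 3D replicate 3. LS513 held 37.6, 37.9 and 38.8 CPM in 2D and 44.8, 41.6 and 41.6 CPM in 3D (log2 fold change 0.16, standard error 0.12, adjusted p = 0.37) and HT29 24.9, 27.3 and 24.9 CPM in 2D and 21.7, 22.2 and 21.7 CPM in 3D (log2 fold change -0.23, standard error 0.12, adjusted p = 0.14). LS174T held 18.1, 17.3 and 16.1 CPM in 2D and 18.1, 16.8 and 14.8 CPM in 3D (log2 fold change -0.05, standard error 0.12, adjusted p = 0.81). The HCT116 call was lost when HCT116 2D replicate 3, 3D replicate 1 or 3D replicate 2 was left out (adjusted p up to 0.2), when every gene with a count was tested (adjusted p = 0.091) and when the 6 libraries of the line were fitted alone (adjusted p = 0.12). ABCC11 reached at most 1.11 CPM in any library and was called in no single line. In the mean of the lines it was called higher (mean log2 fold change 0.70, standard error 0.29, adjusted p = 0.0483). That call was lost when any of 19 of the 24 libraries was left out, when every gene with a count was tested and with DESeq2. ABCC12 reached at most 2 counts.

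**Figure D3:**
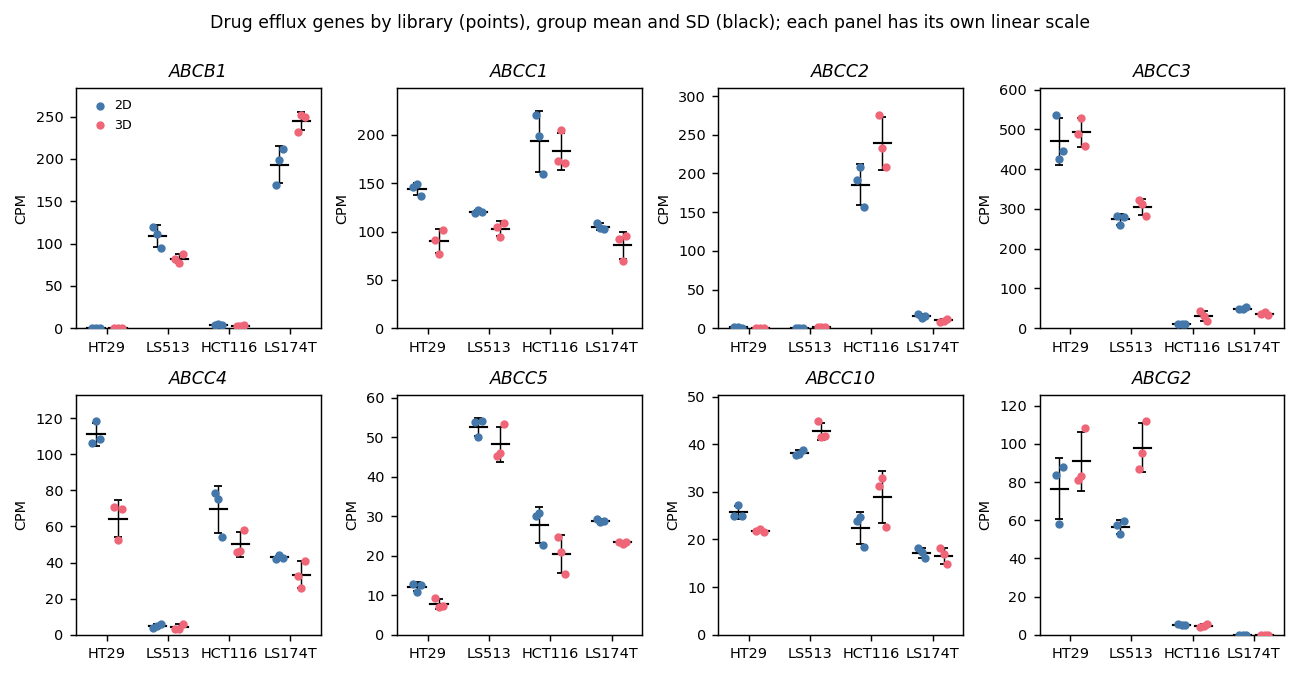
CPM of 8 drug pumps in each library (points; blue, 2D; red, 3D) by line, with the group mean and SD of 3 libraries in black; each panel has its own linear axis from 0. ABCB1 stands high in LS174T and LS513 only, ABCC2 in HCT116, ABCC3 and ABCG2 in HT29 and LS513, and the HT29 3D points of ABCC1, ABCC4 and ABCC5 lie below the 2D points.

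Both cholesterol exporters ABCA1 and ABCG1 were called higher in HT29 and in no other line. ABCA1 (ENSG00000165029, chr9:104781002-104928237, minus strand) passes cholesterol and phospholipid to lipid-poor apolipoprotein A-I, and in HT29 it lay at 5.73, 3.75 and 6.41 CPM in 2D and 11.6, 14.1 and 15.96 CPM in 3D (log2 fold change 1.40, standard error 0.23, adjusted p = 7.3e-05). ABCG1 (ENSG00000160179, chr21:42199689-42297244, plus strand), which passes cholesterol to high-density lipoprotein, lay in HT29 at 29.6, 24.7 and 29.9 CPM in 2D and 62.8, 54.9 and 63.2 CPM in 3D (log2 fold change 1.10, standard error 0.21, adjusted p = 2.1e-04). Neither gene overlapped between cultures in HT29, and no alternative or library left out ended these calls. HT29 was also the line with most of both in 2D, above HCT116 for ABCA1 (log2 HT29 over HCT116 3.84, adjusted p = 2.2e-10) and above LS513 for ABCG1 (log2 HT29 over LS513 2.42, adjusted p = 1.6e-09). Elsewhere ABCA1 was near the limit of detection: HCT116 libraries held 0.242, 0.460 and 0.385 CPM in 2D and 0.233, 0.359 and 0.435 CPM in 3D, LS513 libraries 0.0965, 0.0302 and 0.190 CPM in 2D and 0.141, 0.107 and 0.0693 CPM in 3D, and LS174T libraries at most 1 count in any library. LS513 held ABCG1 at 6.47, 5.68 and 3.58 CPM in 2D and 3.87, 3.98 and 3.19 CPM in 3D (log2 fold change -0.51, standard error 0.23, adjusted p = 0.12) and HCT116 at 0.664, 1.32 and 1.51 CPM in 2D and 1.10, 1.31 and 0.969 CPM in 3D (log2 fold change -0.05, standard error 0.30, adjusted p = 0.96). These overlapped and were not called, and ABCG1 had at most 5 counts in LS174T. Of the 6 leukocyte markers, CD14 and CD68 moved the same way in HT29, from 6.11 ± 1.13 to 12.6 ± 2.53 CPM (CD14) and from 5.98 ± 1.42 to 13.5 ± 2.12 CPM (CD68), while PTPRC and CD3E were at 0 counts in the 3D libraries; their part in the result was not tested.

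ABCA3 (ENSG00000167972, chr16:2275881-2340746, minus strand), which loads surfactant lipids into lamellar bodies of lung alveolar cells, was found mainly in LS174T. LS174T held ABCA3 at 157, 179 and 183 CPM in 2D and 172, 149 and 177 CPM in 3D (log2 fold change -0.06, standard error 0.14, adjusted p = 0.81), far above HCT116 in 2D (log2 HCT116 over LS174T -5.39, adjusted p = 1.1e-17). In HCT116, ABCA3 lay at 3.23, 3.997 and 5.20 CPM in 2D and 10.7, 11.2 and 8.96 CPM in 3D (log2 fold change 1.31, standard error 0.17, adjusted p = 5.0e-06), all 3D libraries above all 2D libraries. In HT29, ABCA3 lay at 0.549, 0.378 and 0.548 CPM in 2D and 1.30, 0.484 and 0.907 CPM in 3D (log2 fold change 0.90, standard error 0.32, adjusted p = 0.028), called higher although 1 3D library lay within the 2D range. LS513 held 0.322, 0.393 and 0.317 CPM in 2D and 0.458, 0.497 and 0.312 CPM in 3D, which overlapped (log2 fold change 0.29, standard error 0.38, adjusted p = 0.66), and HT29 and LS513 did not differ in 2D (log2 HT29 over LS513 0.49, adjusted p = 0.28). The HT29 call was lost when HT29 2D replicate 2 or 3D replicate 1 was left out (adjusted p up to 0.23) and when the 6 libraries of the line were fitted alone (adjusted p = 0.09).

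ABCA2 (ENSG00000107331, chr9:137007227-137028922, minus strand), an endolysosomal sterol transporter, was the lipid transporter with the highest level per kilobase. Its 2D order was LS174T, LS513 (log2 LS513 over LS174T -0.39, adjusted p = 0.0038), HT29, which did not differ from LS513 (log2 HT29 over LS513 -0.03, adjusted p = 0.85), and HCT116 (log2 HT29 over HCT116 1.15, adjusted p = 2.9e-09). LS174T showed ABCA2 at 248, 229 and 226 CPM in 2D and 295, 293 and 289 CPM in 3D (log2 fold change 0.32, standard error 0.11, adjusted p = 0.04). HCT116 showed it at 78.05, 79.1 and 78.6 CPM in 2D and 123, 119 and 79.9 CPM in 3D (log2 fold change 0.45, standard error 0.11, adjusted p = 0.0037). Both were called higher without overlap, but in HCT116 3D replicate 3 lay just above the 2D libraries. HT29 held 187, 152 and 186 CPM in 2D and 200.3, 205 and 211 CPM in 3D (log2 fold change 0.23, standard error 0.11, adjusted p = 0.094) and LS513 177, 173 and 186 CPM in 2D and 208, 206 and 196 CPM in 3D (log2 fold change 0.19, standard error 0.11, adjusted p = 0.24), where the cultures did not overlap and no call was made. The LS174T call was lost when LS174T 2D replicate 1, 2D replicate 2, 2D replicate 3, 3D replicate 1, 3D replicate 2 or LS513 2D replicate 1 was left out (adjusted p up to 0.12) and when the 6 libraries of the line were fitted alone (adjusted p = 0.066). The HCT116 call was lost when HCT116 3D replicate 1 was left out (adjusted p up to 0.0502).

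ABCA7 (ENSG00000064687, chr19:1040101-1065572, plus strand), a phospholipid transporter close to ABCA1 in sequence, was lower in LS513 than in the other lines in 2D (log2 LS513 over LS174T -2.32, adjusted p = 8.5e-11), which did not differ from each other (adjusted p from 0.65 to 0.95). In HCT116, ABCA7 lay at 32.5, 39.3 and 34.3 CPM in 2D and 70.9, 59.3 and 35.1 CPM in 3D (log2 fold change 0.64, standard error 0.17, adjusted p = 0.0057), called higher with 3D replicate 3 inside the 2D range. HT29 held 38.2, 28.7 and 32.7 CPM in 2D and 46.6, 40.01 and 42.2 CPM in 3D (log2 fold change 0.37, standard error 0.17, adjusted p = 0.08) and LS513 6.69, 6.34 and 7.13 CPM in 2D and 9.09, 8.31 and 8.91 CPM in 3D (log2 fold change 0.38, standard error 0.18, adjusted p = 0.14). In both the 3D libraries lay above the 2D libraries without a call, whereas LS174T, at 35.3, 36.3 and 29.2 CPM in 2D and 36.7, 39.4 and 32.4 CPM in 3D, overlapped (log2 fold change 0.11, standard error 0.17, adjusted p = 0.69). The HT29 and LS513 rises were called when the 6 libraries of the line were fitted alone (adjusted p = 0.015 and 0.028). The HT29 rise was also called when every gene with a count was tested (adjusted p = 0.013). The HCT116 call was lost when HCT116 3D replicate 1 was left out (adjusted p up to 0.089) and when the 6 libraries of the line were fitted alone (adjusted p = 0.0545).

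ABCA5 (ENSG00000154265, chr17:69244311-69327244, minus strand), a sterol transporter of late endosomes and lysosomes, was lowest in HT29 in 2D (log2 HT29 over LS513 -1.62, adjusted p = 2.3e-06), and the other lines did not differ from each other. In HT29, ABCA5 lay at 1.89, 1.34 and 1.92 CPM in 2D and 2.53, 3.84 and 3.30 CPM in 3D (log2 fold change 0.92, standard error 0.24, adjusted p = 0.0043), higher in 3D without overlap. LS513 held 5.82, 4.35 and 5.51 CPM in 2D and 7.85, 6.43 and 7.62 CPM in 3D (log2 fold change 0.48, standard error 0.21, adjusted p = 0.1) and HCT116 3.93, 4.77 and 3.59 CPM in 2D and 6.02, 4.97 and 4.95 CPM in 3D (log2 fold change 0.37, standard error 0.21, adjusted p = 0.2). The 3D libraries of these lines also lay above the 2D libraries, without a call, and LS174T, at 3.02, 5.69 and 4.35 CPM in 2D and 5.46, 4.41 and 6.94 CPM in 3D, overlapped (log2 fold change 0.37, standard error 0.21, adjusted p = 0.22).

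ABCB4 (ENSG00000005471, chr7:87401697-87480435, minus strand), the exporter of phosphatidylcholine into bile, was low in all lines and was called in HT29, at 0.206, 0.172 and 0.164 CPM in 2D and 0.452, 0.657 and 0.617 CPM in 3D (log2 fold change 1.63, standard error 0.50, adjusted p = 0.012). LS174T held 0.628, 0.711 and 0.918 CPM in 2D and 1.26, 1.35 and 1.29 CPM in 3D (log2 fold change 0.78, standard error 0.36, adjusted p = 0.12), again without overlap but not called, and LS513 and HCT116 stayed at or under 4 counts in every library. ABCA12 (ENSG00000144452, chr2:214931542-215138428, minus strand), which supplies ceramides to the skin barrier, was detected in HCT116 at 2.81, 3.997 and 2.09 CPM in 2D and 3.52, 3.59 and 3.34 CPM in 3D (log2 fold change 0.23, standard error 0.24, adjusted p = 0.51). It had no count in LS513. LS174T held ABCA12 at 0.568, 0.427 and 0.563 CPM in 2D and 0.245, 0.182 and 0.369 CPM in 3D (log2 fold change -0.94, standard error 0.36, adjusted p = 0.067), all 3D libraries below all 2D libraries without a call, and HT29 held 0.274, 0.138 and 0.164 CPM in 2D and 0.121, 0.207 and 0.109 CPM in 3D. ABCA4, the retinoid transporter of photoreceptors, was called higher in LS174T, at 0.0682 ± 0.0335 CPM in 2D and 0.786 ± 0.186 CPM in 3D (log2 fold change 3.44, standard error 0.51, adjusted p = 5.5e-05), and in HCT116, at 0.494 ± 0.0474 CPM in 2D and 1.10 ± 0.433 CPM in 3D (log2 fold change 1.15, standard error 0.37, adjusted p = 0.022). In LS174T the 2D libraries held 1 to 3 counts, and the HCT116 call was lost when HCT116 2D replicate 1, 2D replicate 2, 2D replicate 3, 3D replicate 1 or 3D replicate 2 was left out (adjusted p up to 0.11). ABCA10 was detected in HT29 alone, at 0.792 ± 0.240 and 0.788 ± 0.166 CPM, and ABCG4 in HCT116 alone, at 2.91 ± 0.517 and 2.43 ± 0.796 CPM in 2D and 3D, with no call for either.

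**Figure D4:**
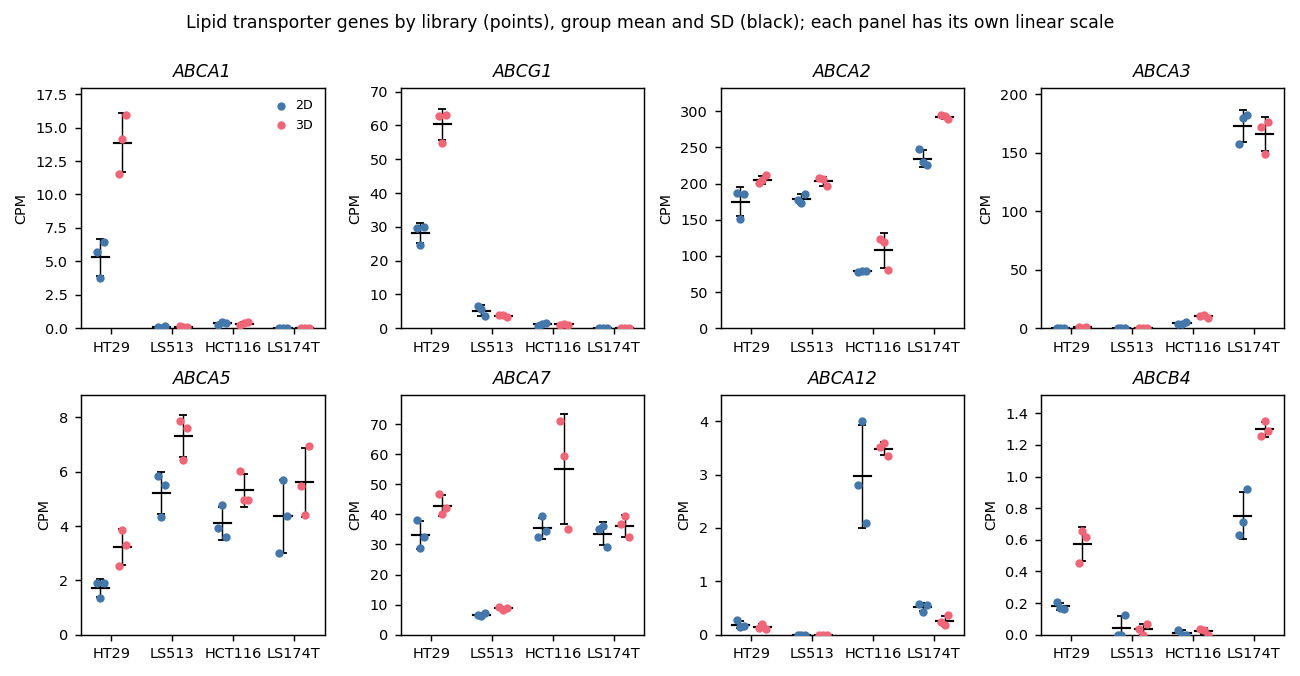
CPM of 8 lipid transporters in each library (points; blue, 2D; red, 3D) by line, with the group mean and SD of 3 libraries in black; each panel has its own linear axis from 0. The 3D points of ABCA1 and ABCG1 in HT29 and of ABCA3 in HCT116 lie above the 2D points, and ABCA3 is high in LS174T in both cultures.

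ABCD3 (ENSG00000117528, chr1:94418455-94518666, plus strand) brings branched-chain acyl-CoA and bile acid intermediates into peroxisomes, and it was called lower in all 4 lines. HCT116 showed ABCD3 at 84.9, 83.5 and 75.8 CPM in 2D and 44.1, 43.2 and 55.5 CPM in 3D (log2 fold change -0.77, standard error 0.14, adjusted p = 2.6e-04). HT29 showed it at 121, 122 and 133 CPM in 2D and 96.5, 84.4 and 87.03 CPM in 3D (log2 fold change -0.49, standard error 0.14, adjusted p = 0.0073). Every 3D library lay below every 2D library in both lines. LS513 showed ABCD3 at 82.1, 88.1 and 81.6 CPM in 2D and 58.2, 49.8 and 77.3 CPM in 3D (log2 fold change -0.44, standard error 0.14, adjusted p = 0.024). LS174T showed it at 111, 119 and 117 CPM in 2D and 90.7, 68.5 and 106 CPM in 3D (log2 fold change -0.39, standard error 0.14, adjusted p = 0.0462). Here too the cultures did not overlap, with 3D replicate 3 closest to the 2D libraries in both. The LS513 call was lost when LS513 2D replicate 1, 2D replicate 2, 3D replicate 1 or 3D replicate 2 was left out (adjusted p up to 0.17). The HT29 call was lost when HT29 3D replicate 3 was left out (adjusted p up to 0.0543). In LS174T the call was lost when any of 20 of the 24 libraries was left out (adjusted p up to 0.28). It was also lost when the 6 libraries of the line were fitted alone (adjusted p = 0.13) and when technical replicate d was left out (adjusted p = 0.058).

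ABCD4, needed for release of cobalamin from lysosomes, was called in no single line, with log2 fold changes from -0.09 in HCT116 to 0.29 in HT29. In the mean of the lines it was called higher (mean log2 fold change 0.15, standard error 0.06, adjusted p = 0.038). That call was lost when any of 12 of the 24 libraries was left out and when every gene with a count was tested. ABCD2 was at or under 3 counts in every library.

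ABCB6 (ENSG00000115657, chr2:219209766-219219017, minus strand), a porphyrin transporter of mitochondria and other membranes, was the organelle member with calls in most lines. LS513, the line with most of it in 2D (log2 LS513 over HCT116 2.49), showed ABCB6 at 81.1, 71.99 and 80.1 CPM in 2D and 91.4, 106 and 90.5 CPM in 3D (log2 fold change 0.30, standard error 0.11, adjusted p = 0.044). HCT116 showed it at 11.8, 15.1 and 14.7 CPM in 2D and 22.2, 19.7 and 16.3 CPM in 3D (log2 fold change 0.49, standard error 0.11, adjusted p = 0.0025). LS174T showed it at 17.8, 16.98 and 16.3 CPM in 2D and 20.9, 23.5 and 21.3 CPM in 3D (log2 fold change 0.36, standard error 0.11, adjusted p = 0.024). In all 3 lines the 3D libraries lay above the 2D libraries. HT29, at 31.5, 27.8 and 30.1 CPM in 2D and 29.98, 30.5 and 33.3 CPM in 3D, overlapped and was not called (log2 fold change 0.07, standard error 0.11, adjusted p = 0.68). The LS513 call was lost when any of 14 of the 24 libraries was left out (adjusted p up to 0.24). It was also lost when every gene with a count was tested (adjusted p = 0.13) and when technical replicate d was left out (adjusted p = 0.056). The LS174T call was lost when LS174T 2D replicate 2, 2D replicate 3 or 3D replicate 2 was left out (adjusted p up to 0.09), when every gene with a count was tested (adjusted p = 0.0536) and when the 6 libraries of the line were fitted alone (adjusted p = 0.07). Of the other organelle members, ABCB9, a lysosomal peptide transporter, was called higher in HT29, at 7.88 ± 0.446 CPM in 2D and 10.5 ± 0.832 CPM in 3D (log2 fold change 0.42, standard error 0.12, adjusted p = 0.0074). ABCB8 and ABCB10, which serve potassium and haem handling in mitochondria, were called in no single line, with log2 fold changes from -0.37 (ABCB10 in HCT116) to 0.22 (ABCB8 in HT29). In the mean of the lines ABCB10 was called lower (mean log2 fold change -0.22, standard error 0.07, adjusted p = 0.011).

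Of the 4 translation factors, ABCE1, ABCF1 and ABCF2 were called lower in 3D in at least 2 lines and ABCF3 in none. ABCE1 (ENSG00000164163, chr4:145097932-145129179, plus strand) splits ribosomes after termination so that they can be used again. HT29 showed ABCE1 at 211, 244 and 255 CPM in 2D and 128, 121 and 149 CPM in 3D (log2 fold change -0.83, standard error 0.14, adjusted p = 4.7e-05). HCT116 showed it at 266, 264 and 232 CPM in 2D and 165, 163 and 206 CPM in 3D (log2 fold change -0.51, standard error 0.13, adjusted p = 0.0061). In both lines the 3D libraries lay below the 2D libraries without overlap. LS513 showed ABCE1 at 168, 178 and 162 CPM in 2D and 112, 104 and 162 CPM in 3D (log2 fold change -0.42, standard error 0.14, adjusted p = 0.025), where 3D replicate 3 reached the lowest 2D library. LS174T, with least ABCE1 in 2D (log2 LS513 over LS174T 0.94, adjusted p = 2.4e-06), held 83.3, 88.6 and 93.4 CPM in 2D and 69.9, 65.7 and 83.04 CPM in 3D and was not called (log2 fold change -0.28, standard error 0.14, adjusted p = 0.14). The LS513 call was lost when LS513 2D replicate 1, 2D replicate 2, 3D replicate 1 or 3D replicate 2 was left out (adjusted p up to 0.16).

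ABCF2 (ENSG00000033050, chr7:151212490-151227230, minus strand) belongs to the ABCF ATPases that act at ribosomes and was called lower in all 4 lines. HT29 showed ABCF2 at 263, 299 and 256 CPM in 2D and 178, 184 and 190.3 CPM in 3D (log2 fold change -0.57, standard error 0.08, adjusted p = 9.1e-06). HCT116 showed it at 264, 238 and 236 CPM in 2D and 181, 184 and 209.7 CPM in 3D (log2 fold change -0.36, standard error 0.08, adjusted p = 0.0016). Every 3D library lay below every 2D library in these lines. LS513 showed ABCF2 at 206, 204 and 189 CPM in 2D and 169.9, 159 and 163 CPM in 3D (log2 fold change -0.28, standard error 0.08, adjusted p = 0.013). LS174T showed it at 226, 205 and 222 CPM in 2D and 180.3, 188 and 169 CPM in 3D (log2 fold change -0.28, standard error 0.08, adjusted p = 0.015). The cultures did not overlap there either. The LS513 call was lost when LS513 2D replicate 1, 2D replicate 2 or 3D replicate 2 was left out (adjusted p up to 0.065) and when every gene with a count was tested (adjusted p = 0.091). In LS174T the call was lost when LS174T 2D replicate 1 or 2D replicate 3 was left out (adjusted p up to 0.062), when every gene with a count was tested (adjusted p = 0.097) and when the 6 libraries of the line were fitted alone (adjusted p = 0.093). ABCF1, which takes part in the start of translation, was called lower in HT29, at 174 ± 7.02 CPM in 2D and 126 ± 5.83 CPM in 3D (log2 fold change -0.47, standard error 0.07, adjusted p = 2.9e-05), and in HCT116, at 161 ± 9.36 CPM in 2D and 128 ± 5.89 CPM in 3D (log2 fold change -0.34, standard error 0.07, adjusted p = 0.0013). Its 3D libraries lay below the 2D libraries in LS513 and LS174T as well, without a call. ABCF3 was called in no line, with log2 fold changes from -0.18 in HT29 to 0.04 in LS174T.

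**Figure D5:**
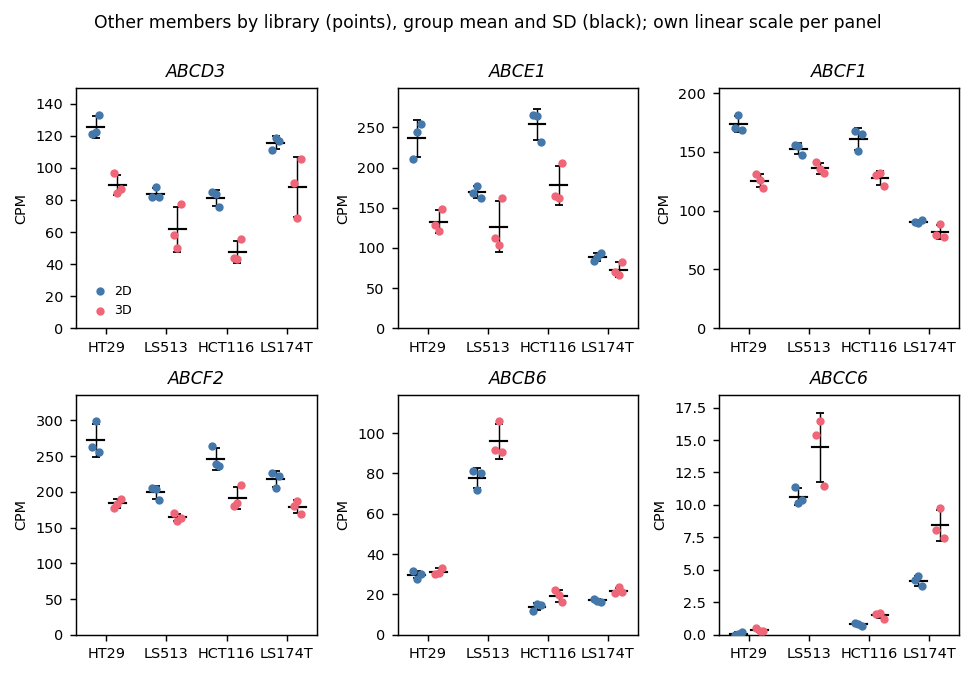
CPM of ABCD3, ABCE1, ABCF1, ABCF2, ABCB6 and ABCC6 in each library (points; blue, 2D; red, 3D) by line, with the group mean and SD of 3 libraries in black; each panel has its own linear axis from 0. ABCD3 and ABCF2 lie lower in 3D in all 4 lines, and ABCC6 lies higher in 3D in all 4, with a call in 3.

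The surrounding genes of the pathway were described by lists. ABC proteins under other symbols, 3 genes of which all are named here after their values were seen, included CFTR, which moved in opposite directions in 2 lines. CFTR, the chloride channel of the gut epithelium, rose from 40.7 to 110.0 CPM in HT29 (log2 1.44, adjusted p = 1.0e-06) and fell from 136 to 98.1 CPM in LS513 (log2 -0.47, adjusted p = 0.036). The antigen peptide transporter TAP1 rose from 2.45 to 5.21 CPM in HT29 (log2 1.12, adjusted p = 1.4e-05) and from 52.3 to 127 CPM in HCT116 (log2 1.28, adjusted p = 5.8e-08), and its partner TAP2 rose from 127 to 179.8 CPM in HCT116 (log2 0.50, adjusted p = 1.1e-04). None of these 3 was called in LS174T. Of 22 nuclear receptors and other regulators of ABC genes, 20 were tested, and 9, 7, 4 and 7 were called higher and 0, 1, 1 and 0 lower in HT29, LS513, HCT116 and LS174T, beside the background shares given above. The sterol regulators SREBF1 and SREBF2 were called higher in all 4 lines. The LXR gene NR1H3 was called higher in 3 lines, from 58.6 to 108 CPM in HT29 (log2 0.88, adjusted p = 1.0e-04), from 12.5 to 21.5 CPM in LS513 (log2 0.78, adjusted p = 0.001) and from 11.02 to 19.2 CPM in LS174T (log2 0.80, adjusted p = 0.0013). The PXR gene NR1I2 was called higher in the same lines, from 0.0527 to 0.687 CPM in HT29 (log2 3.62, adjusted p = 1.9e-06), from 0.231 to 2.60 CPM in LS513 (log2 3.48, adjusted p = 2.4e-09) and from 24.7 to 45.2 CPM in LS174T (log2 0.87, adjusted p = 2.6e-04). Its 2D level lay below the limit of detection in HT29 and close to it in LS513, so the sizes of these 2 rises are uncertain. HNF4A, PPARD and RXRB were also called higher in 3 lines each.

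Of 15 drug uptake carriers 13 were tested, with 3, 5, 3 and 3 called higher and 4, 2, 3 and 3 lower in HT29, LS513, HCT116 and LS174T, where 21.1%, 13.7%, 16.8% and 13.1% of all genes were called higher and 19.6%, 9.90%, 12.3% and 9.15% lower. SLC29A1, the nucleoside carrier that lets adenosine and nucleoside drugs into the cell, was called lower in all 4 lines, with its largest fall from 272 to 158 CPM in LS513 (log2 -0.78, adjusted p = 3.0e-07). SLC22A18 was called higher in all 4, with its largest rise from 6.76 to 20.1 CPM in HCT116 (log2 1.58, adjusted p = 1.0e-07), and SLCO2B1 was called higher in 3. All 21 conjugation and glutathione enzymes were tested, and 8, 10, 7 and 9 were called higher and 3, 0, 1 and 1 lower, beside the same shares of all genes. GSTZ1 and MGST3 were called higher in all 4 lines, and GSTK1, GSTM4, MGST1, MGST2 and TPMT in 3. The enzymes of this list attach glutathione or other groups to the compounds that the ABCC pumps export, or make glutathione itself.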

How the data were processed

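RNA was measured in 24 libraries, 3 for each of 4 lines in 2D and 3D, from 191 technical replicates (8 per library, but 7 in HT29 3D replicate 4, whose technical replicate d was not analysed here). According to the study's methods, poly(A)+ stranded libraries were sequenced as single reads, trimmed with Trim Galore 0.4.1, aligned with STAR to Ensembl 91 and counted per gene with HTSeq 0.5.3 after removal of reads aligned to several places. The submitters' processing notes also list bcl2fastq 2.18.0.12. The deposited values are raw counts per gene, which the authors did not normalize in these files. The labels name hg19 as the build, whereas Ensembl 91 is a GRCh38 annotation; gene IDs were matched to GENCODE 29 (GRCh38), which held 57980 of 58243 genes.

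Counts of members include 2 genes that are not reported singly here. A further 16 genes with ABC symbols were not protein-coding and were left out. Technical replicates were summed per library. Counts were scaled by TMM, filtered with filterByExpr (19387 genes kept) and fitted in edgeR 4.0.16 (R 4.3.3) by the robust quasi-likelihood method over all 24 libraries with 8 group coefficients. Contrasts were 3D against 2D in each line, their mean, their interaction with line, and lines in 2D. P-values were adjusted by Benjamini-Hochberg over all tested genes. Between 3 and 3 libraries an exact permutation test cannot go below p = 0.1, so none was used. Alternatives were DESeq2 1.42.0 and its size factors, a test of every gene that had a count, a block for the replicate number, fits of 6 libraries, leaving out technical replicate d or each library, and stricter thresholds. Total counts per library ran from 18723942 to 34277421. Levels per kilobase divide CPM by the exonic length of the gene. The limit of 3 counts covers counting error only. Members and gene lists were chosen with earlier results of these data known. Library values were printed for the main drug pumps and lipid transporters, for members called the same way in at least 3 lines or in opposite directions in 2, and for those with a called interaction; pathway genes were named when called the same way in at least 3 lines.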

Additional observations from a re-analysis of the deposited data

Results flagged for a closer look

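For 7 members the change from 2D to 3D differed between the 4 lines by the F test on the interaction of line and culture (edgeR, adjusted over all tested genes). ABCC3 had the smallest adjusted p, 7.59e-06, being called higher in HCT116 and lower in LS174T. ABCC2 followed (adjusted p = 0.000205), called lower in HT29 and LS174T and higher in LS513. ABCA3 differed with an adjusted p of 0.00074, called higher in HCT116 and HT29 while its high level in LS174T was not called. ABCG1 differed with an adjusted p of 0.00251 and ABCA1 with an adjusted p of 0.0377, each called in HT29 alone, where each rose. The ABCA1 interaction was lost when any of 9 of the 24 libraries was left out (adjusted p up to 0.0853): HCT116 2D replicate 2 or 3, HCT116 3D replicate 1 or 2, HT29 2D replicate 2, HT29 3D replicate 4, LS174T 2D replicate 1 or 2, or LS513 2D replicate 1. ABCB1 differed with an adjusted p of 0.00963, called higher in LS174T and lower in LS513. ABCG2 differed with an adjusted p of 0.027, called higher in LS513 alone. Its interaction was lost without HCT116 2D replicate 1, HCT116 3D replicate 1 or 2, LS513 2D replicate 1 or 2, or LS513 3D replicate 3 (adjusted p up to 0.0763). Log2 fold changes of these members in each line and their library values are given above. ABCA1, ABCG1 and ABCG2 had at most 5 counts in any LS174T library. Their log2 fold changes there (-2.53, 2.53 and 0.63) entered these tests but rest on few counts and are uncertain.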

How the results depend on the processing

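No growth effect that was called in the main fit or in an alternative changed direction between them. The direction of effects called in neither was not checked. Of 46 calls in single lines, 27 held in each of the 6 other fits that gave a value, and 22 of them also with each library left out. The fits were DESeq2, its size factors, every gene with a count, the replicate block, the line's own 6 libraries, and no technical replicate d. For ABCC6 in HT29, counted as held, only 5 of the fits gave a value. The stricter thresholds are not part of these counts. Calls in single lines absent from the main fit were gained as well: 4 with DESeq2, 2 with its size factors and 6 with every gene with a count. A further 9 were gained with the line's own 6 libraries, some of them the same, and 1 without technical replicate d. The labels state no pairing of samples by replicate number. Deviations from group means correlated between -0.146 and 0.0938 for same-numbered 2D and 3D libraries, and between -0.229 and 0.221 for differently numbered ones. With 3 libraries in a group these deviations depend on one another, so the values cannot exclude shared batches. With the replicate block the counts fell to 3 higher in HT29, 2 lower in LS513, and 2 higher and 1 lower in LS174T. In HT29, 2D replicate 2 and 3D replicate 4 had no same-numbered partner, so its block fit rested on replicates 1 and 3 of each culture. Among the calls not made with the block were ABCA3, ABCA5, ABCB4, ABCB9 and ABCD3 in HT29, ABCB6, ABCD3 and ABCF2 in LS513, and ABCA2, ABCB1, ABCB6, ABCC3, ABCD3 and ABCF2 in LS174T (adjusted p from 0.0508 to 0.178), and the interaction of ABCA1 (adjusted p = 0.175). Fits of a line's own 6 libraries gave 6 higher in LS513, and 2 higher and 1 lower in LS174T. Without technical replicate d, 2 were lower in LS174T. At an adjusted p under 0.01, 5 were higher in HT29, 0 lower in LS513, and 2 higher and 0 lower in LS174T. With an absolute log2 fold change of at least 0.5 as well, 0 were lower in LS513, 2 lower in HCT116, 2 higher and 1 lower in LS174T, and 5 higher and 2 lower in the mean of the lines. DESeq2 called the interaction for 11 members against 7.

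With single libraries left out, counts ranged from 7 to 12 higher and 7 to 8 lower in HT29, 2 to 4 and 0 to 5 in LS513, 4 to 9 and 4 to 8 in HCT116, 2 to 6 and 0 to 5 in LS174T, 9 to 12 and 8 to 9 in the mean, and 5 to 10 for the interaction. All 33 members stayed called between lines in 2D. The lowest LS513 count of 0 lower came without 2D replicate 1, 2D replicate 2 or 3D replicate 2, and without 3D replicate 1 it was 1. In HCT116, 4 were higher without 3D replicate 1, and 8 lower without 2D replicate 3. In LS174T, 2 were higher without 2D replicate 2 or 3D replicate 2, 3 without 2D replicate 1, 2D replicate 3 or 3D replicate 1, and 0 were lower without 2D replicate 1 or 2D replicate 3. The LS174T count of lower members also fell to 1 without its 3D replicate 1 and to 2 without most libraries of the other lines. The causes of these shifts were not tested. Depth limits members under the floor of 3 counts, for which no change could be seen.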
